A study of Mus musculus with 9 samples.

Results

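The 10 transcripts described here belong to the circadian clock: Arntl, Npas2, Clock, Cry1, Per2, Per3, Nr1d1, Nr1d2, Dbp and Tef. They are 10 of the 23420 genes in the count matrix, chosen by name with their levels in these same libraries already known, so their levels and differences are given as a description. All 10 had a row in the matrix, and 10 of 10 passed the filter on low counts. RNA was measured in brain endothelial cells, the cells that line the vessels and form the blood-brain barrier, sorted as CD31+CD45- from C57BL/6 mice aged 6 months and labelled male. The 3 genotypes were APP/PS1xRIPK1KD, APP/PS1 and WT, with 3 libraries each, and each library held 20000 cells of 1 mouse. APP/PS1 mice are transgenic and deposit amyloid in the brain, and APP/PS1xRIPK1KD mice carry in addition a change in Ripk1, a kinase of cell death and inflammation. The labels do not spell out KD, do not name the promoters of the transgenes, and give no hour of collection and no light schedule, which matter for genes that cycle over the day. RNA was primed from the poly(A) tail by Smart-seq2, without strand information or molecular identifiers. In bulk RNA of this kind, fewer cells of a type and less RNA per cell cannot be told apart.

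In the mammalian clock, the proteins encoded by Arntl (BMAL1) and Clock or Npas2 pair and activate genes that carry E-boxes, among them the Per and Cry genes, whose proteins later repress that pair. A second loop joins in: the nuclear receptors encoded by Nr1d1 and Nr1d2 (REV-ERBα and REV-ERBβ) repress Arntl through RORE elements. Dbp and Tef encode PAR bZIP factors that pass the rhythm on through D-boxes, and Nfil3 encodes a repressor of the same sites. In mouse organs the transcripts of Dbp and Nr1d1 peak during the light phase, those of Per2 follow towards dusk, and those of Arntl and Npas2 stand in nearly the opposite phase, while Clock cycles weakly.

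These elements are shown in promoter sequence because the factors of the loops described above act through them. RefSeq promoters on GRCm38.p6, running 250 bases before to 50 after a transcription start, matched 9 of the 10 genes with 13 starts. Searched on both strands were the E-box CACGTG, the E′-box CACGTT, the D-boxes TTATGTAA and TTATGCAA, and the RORE core TAGGTCA, and no matches overlapped. Of the 9 genes, 5 held a match to at least 1 motif. Npas2, Clock, Dbp and Nr1d2 held none, nor did the first start of Arntl, and Per2 had no promoter entry. Printed beside them are Ciart, a repressor of the clock with several E-boxes whose level followed Dbp, and Nfil3, whose level had the highest correlation with that of Arntl. Capitals mark the matches, and every sequence reads 5′ to 3′ on the strand of the gene.
Arntl (second start), chr7:113207261-113207560, plus strand: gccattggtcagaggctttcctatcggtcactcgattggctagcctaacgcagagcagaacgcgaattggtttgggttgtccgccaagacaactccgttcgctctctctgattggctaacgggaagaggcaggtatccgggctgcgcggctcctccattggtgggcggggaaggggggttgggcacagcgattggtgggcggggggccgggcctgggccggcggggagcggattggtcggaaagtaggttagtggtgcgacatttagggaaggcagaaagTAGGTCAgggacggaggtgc
Cry1, chr10:85185005-85185304, minus strand: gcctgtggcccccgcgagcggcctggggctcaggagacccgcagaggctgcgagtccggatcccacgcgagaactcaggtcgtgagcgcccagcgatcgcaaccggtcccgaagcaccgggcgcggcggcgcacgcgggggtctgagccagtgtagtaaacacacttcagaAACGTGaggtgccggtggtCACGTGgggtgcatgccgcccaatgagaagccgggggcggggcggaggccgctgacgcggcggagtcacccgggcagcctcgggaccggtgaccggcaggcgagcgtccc
Per3, chr4:151044616-151044915, minus strand: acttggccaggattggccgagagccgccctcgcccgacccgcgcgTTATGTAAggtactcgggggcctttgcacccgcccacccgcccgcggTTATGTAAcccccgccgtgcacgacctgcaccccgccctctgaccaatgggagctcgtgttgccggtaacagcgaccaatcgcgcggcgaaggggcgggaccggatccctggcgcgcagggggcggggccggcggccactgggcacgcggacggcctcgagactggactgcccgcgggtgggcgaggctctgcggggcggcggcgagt
Nr1d1, chr11:98775328-98775627, minus strand: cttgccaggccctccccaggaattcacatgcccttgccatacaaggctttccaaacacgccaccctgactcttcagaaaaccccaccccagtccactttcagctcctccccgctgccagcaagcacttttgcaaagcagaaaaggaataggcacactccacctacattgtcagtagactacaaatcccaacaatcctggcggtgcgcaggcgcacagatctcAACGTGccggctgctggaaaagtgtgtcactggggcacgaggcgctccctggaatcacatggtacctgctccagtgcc
Tef (second start), chr15:81811164-81811463, plus strand: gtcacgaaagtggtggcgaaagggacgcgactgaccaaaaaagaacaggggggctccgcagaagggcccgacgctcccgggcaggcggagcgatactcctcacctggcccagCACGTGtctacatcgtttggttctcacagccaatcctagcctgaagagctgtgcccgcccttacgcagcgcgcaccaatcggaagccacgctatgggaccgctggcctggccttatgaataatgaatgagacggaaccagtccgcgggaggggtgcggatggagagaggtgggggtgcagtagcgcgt
Ciart, chr3:95882179-95882478, minus strand: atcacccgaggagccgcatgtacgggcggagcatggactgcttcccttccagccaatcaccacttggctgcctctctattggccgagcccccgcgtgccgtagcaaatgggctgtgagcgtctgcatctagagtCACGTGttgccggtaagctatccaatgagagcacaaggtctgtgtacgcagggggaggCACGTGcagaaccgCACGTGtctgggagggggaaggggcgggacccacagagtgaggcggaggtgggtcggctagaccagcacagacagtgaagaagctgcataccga
Nfil3, chr13:52980990-52981289, minus strand: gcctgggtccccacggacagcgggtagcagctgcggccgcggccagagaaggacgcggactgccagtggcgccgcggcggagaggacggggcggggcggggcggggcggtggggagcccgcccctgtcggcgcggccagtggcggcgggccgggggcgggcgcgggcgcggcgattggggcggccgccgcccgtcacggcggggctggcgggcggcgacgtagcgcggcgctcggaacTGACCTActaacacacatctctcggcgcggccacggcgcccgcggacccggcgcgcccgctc

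In these windows the core activator Arntl and the repressor Nfil3 held the RORE core, that of Arntl 31 bases after the start and that of Nfil3, on the other strand, 12 bases upstream. Cry1 held an E-box 60 bases and an E′-box, on the other strand, 79 bases upstream. Tef held an E-box at each of its 2 starts, 138 bases upstream in the one printed and 127 in the other. Per3 held D-boxes 205 and 158 bases upstream, Nr1d1 an E′-box, on the other strand, 28 bases upstream, and Ciart 3 E-boxes 116, 58 and 44 bases upstream. Among all 32851 promoters of this length the E-box was present in 7.15%, the E′-box in 4.68%, the D-boxes in 1.66% and the RORE core in 2.61%. These shares are per motif and per promoter, while the 5 of 9 above is per gene over all its starts. A share of promoters with any of the motifs was not computed. Of 13 other clock genes with a promoter entry, 7 held a match. A match is a stretch of letters, and binding was not measured.

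Total expected counts ran from 16263762 to 52413164 per library, so that 3 counts, taken as the floor of detection for counting error only, correspond to 0.0541 to 0.189 CPM. The lowest total was that of APP/PS1 replicate 1, and the next was 38175912 in WT replicate 1. CPM are counts scaled to the library size after TMM normalization. The 8 endothelial markers (Cldn5, Pecam1, Cdh5, Flt1, Slco1a4, Slc2a1, Ly6c1 and Itm2a) summed to 26525 to 28816 CPM in APP/PS1xRIPK1KD, 27267 to 29330 in APP/PS1 and 29173 to 29964 in WT. Of the sums for cells outside the sort, 4 transcripts of choroid plexus epithelium reached 172 to 304 CPM in APP/PS1xRIPK1KD, 53.1 to 143 in APP/PS1 and 38.8 to 68.3 in WT. The 11 transcripts of mural cells summed to 67.3 to 257 CPM in APP/PS1xRIPK1KD, 181 to 233 in APP/PS1 and 12.8 to 58.1 in WT. Leukocyte transcripts reached 360 CPM in WT replicate 3 and at most 17.9 elsewhere. Xist, transcribed from the inactive X chromosome of female cells, stood at 264 to 534 CPM in the 6 libraries of replicates 1 and 2, where 4 Y-linked transcripts summed to at most 0.434 CPM. In the 3 libraries of replicate 3, Xist was at most 4.78 CPM and the Y-linked sum 150 to 185 CPM. The label male therefore goes against the first 6 libraries, and the folds, correlations and spread below are also given for replicates 1 and 2 only.

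Arntl encodes BMAL1, the activator that the clock cannot run without, and lies at chr7:113207465-113314126 (GENCODE M21 on GRCm38, as for all genes here). It stood at 83.3, 47.9 and 29.6 CPM in replicates 1, 2 and 3 of APP/PS1xRIPK1KD, at 23.1, 61.9 and 37.6 CPM in APP/PS1, and at 73.9, 10.4 and 31.5 CPM in WT. The highest and the lowest library of each genotype lay 2.81-fold apart in APP/PS1xRIPK1KD, 2.68-fold in APP/PS1 and 7.1-fold in WT. The 3 genotypes overlapped fully, and the extremes of the whole set, 83.3 and 10.4 CPM, came from APP/PS1xRIPK1KD replicate 1 and WT replicate 2.

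Npas2, at chr1:39193731-39363236, encodes a partner of BMAL1 that can stand in for CLOCK. It stood at 4.51, 7.33 and 3.64 CPM in APP/PS1xRIPK1KD. In APP/PS1 it had 0 counts in replicate 1, which allows up to 0.189 CPM, and 6.54 and 6.58 CPM in the other libraries. In WT it stood at 6.05 and 2.74 CPM in replicates 1 and 3 and had 0 counts in replicate 2, which allows up to 0.0791 CPM. The libraries without Npas2 counts were those lowest in Arntl.

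Clock, at chr5:76209868-76304792, encodes the usual partner of BMAL1. It stood at 45.6, 30.2 and 38.9 CPM in APP/PS1xRIPK1KD, 30.7, 39.6 and 33.1 CPM in APP/PS1, and 31.3, 34.1 and 30.6 CPM in WT. Of the 10 transcripts it was the steadiest, with 1.51-fold between the highest and the lowest library, and its genotypes overlapped.

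Cry1, at chr10:85131700-85185064, encodes a repressor of the BMAL1 pair. Its levels were 44.5, 27.1 and 29.2 CPM in APP/PS1xRIPK1KD, 47.6, 24.2 and 37.4 CPM in APP/PS1, and 20.6, 45.8 and 34.3 CPM in WT. They spanned 2.31-fold, with each genotype covering most of that span.

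Per2, at chr1:91415982-91459324, encodes the period protein that works together with the cryptochromes. It stood at 8.89, 13.9 and 8.83 CPM in APP/PS1xRIPK1KD, 45.6, 3.58 and 31.2 CPM in APP/PS1, and 1.33, 70.7 and 16.8 CPM in WT. Its span of 53.3-fold was the widest among the 9 transcripts with counts in every library, and both ends of it were WT libraries. The 3 libraries of APP/PS1xRIPK1KD lay inside the range of each of the other genotypes.

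Per3, at chr4:151003652-151044665, encodes a period protein that is dispensable for the core rhythm in mice. Its levels were 24.5, 40 and 51.1 CPM in APP/PS1xRIPK1KD, 123, 47.7 and 67.5 CPM in APP/PS1, and 28.3, 116 and 69.2 CPM in WT. APP/PS1 replicate 1 and WT replicate 2 were the high libraries, and the genotypes overlapped.

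Nr1d1, at chr11:98767932-98775333, encodes REV-ERBα. It stood at 137, 244 and 419 CPM in APP/PS1xRIPK1KD, 449, 188 and 432 CPM in APP/PS1, and 171, 494 and 422 CPM in WT. The levels fell into a low stretch up to 244 CPM and a high stretch from 419 CPM, and each genotype had libraries in both. Of its exon bases, 263 (8.55%) are shared with Thra on the opposite strand, whose reads cannot be told apart there without strand. Thra stood at 31.3 to 65.5 CPM, below every Nr1d1 value.

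Nr1d2, at chr14:18204054-18239127, encodes REV-ERBβ. It stood at 46, 81.3 and 109 CPM in APP/PS1xRIPK1KD, 181, 95.3 and 100 CPM in APP/PS1, and 40.4, 94.6 and 106 CPM in WT. APP/PS1 replicate 1 stood above the rest, and the libraries of replicate 1 in the other genotypes were the lowest.

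Dbp, at chr7:45705088-45710203, encodes the PAR bZIP factor with one of the strongest rhythms in mouse organs. It stood at 11.2, 43.7 and 86.8 CPM in APP/PS1xRIPK1KD, 219, 24.1 and 103 CPM in APP/PS1, and 14.5, 220 and 131 CPM in WT. The highest library of APP/PS1xRIPK1KD, at 86.8 CPM, was the median of the 9, while APP/PS1 and WT each held libraries near both ends. The fold between the ends was 7.75 in APP/PS1xRIPK1KD, 9.06 in APP/PS1 and 15.2 in WT. Of the exon bases of Dbp, 539 (18%) are shared with Sphk2 on the opposite strand. Sphk2 stood at 14.6 to 35 CPM, above the Dbp level of APP/PS1xRIPK1KD replicate 1 and WT replicate 1, and the part of shared reads in Dbp was not tested.

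Tef, at chr15:81802421-81826863, encodes a sister factor of Dbp. Its levels were 19.4, 53.9 and 66.4 CPM in APP/PS1xRIPK1KD, 106, 51.6 and 75.5 CPM in APP/PS1, and 29.9, 130 and 91.1 CPM in WT. The 9 libraries ranked in the same order for Tef as for Dbp, and the span was narrower, 6.71-fold against 19.6-fold.

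**Figure D1:**
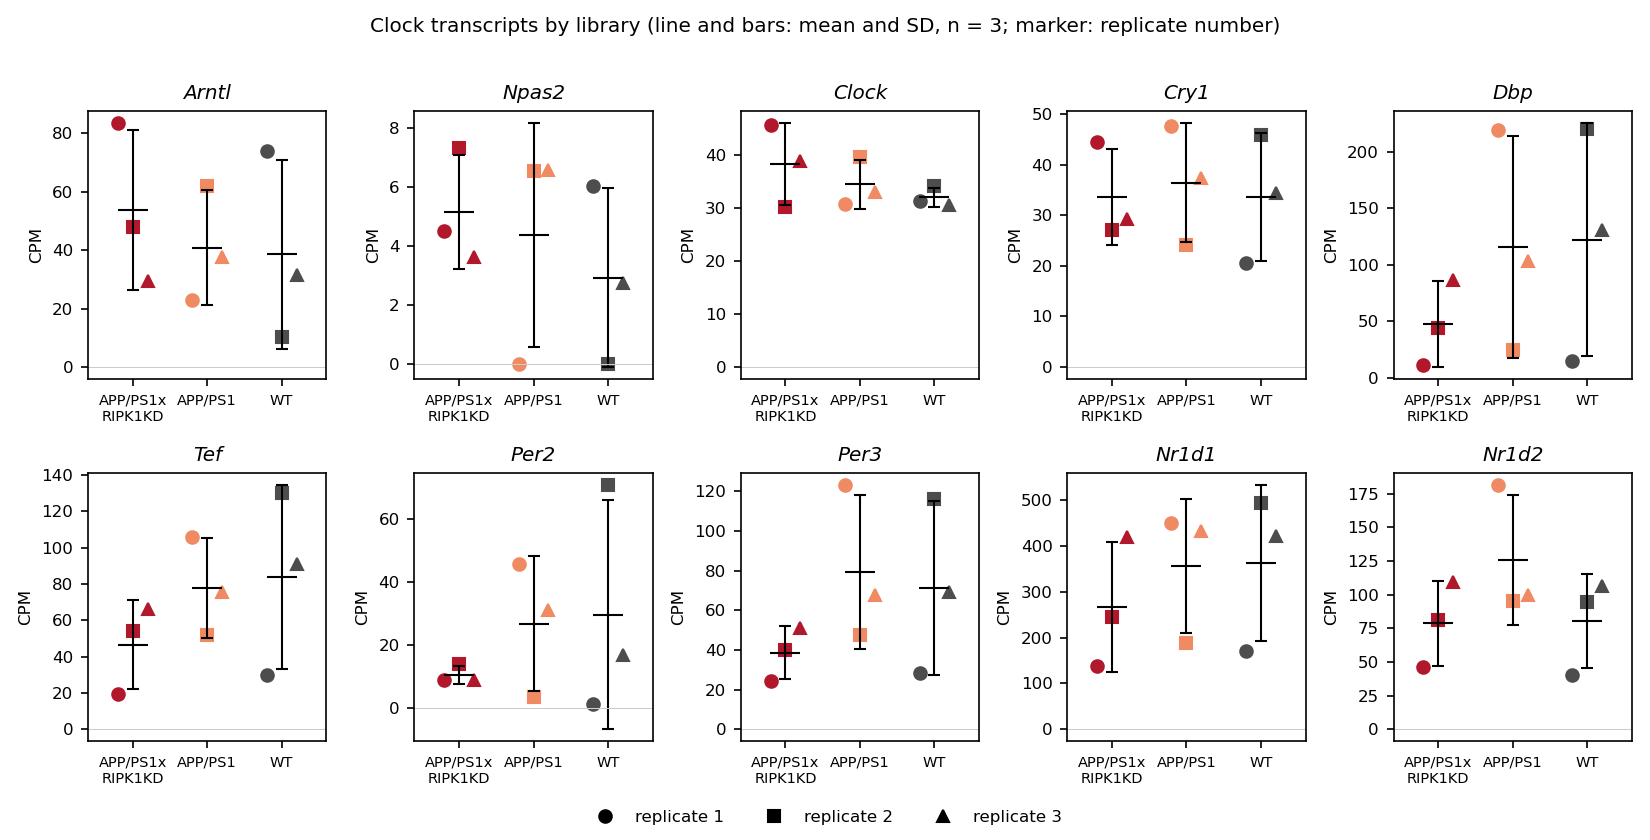
CPM of the 10 clock transcripts (vertical axes, each on its own scale) in the 3 genotypes, with 1 point per library, the marker giving the replicate number and the line and bars the mean ± SD of 3 libraries. The points of the genotypes overlap for every transcript, and Clock, between 30.2 and 45.6 CPM, varies least.

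Set per length of exon, which allows a rough comparison between genes, Nr1d1 had the highest level at 107 ± 45.6 CPM per kb (SD over all 9 libraries), followed by Dbp at 31.7 ± 27.3, Nr1d2 at 17.5 ± 7.52 and Cry1 at 10.3 ± 2.98. The length joins all annotated exons of a gene, whichever isoforms were expressed, so the order can depend on it. Tef stood at 8.82 ± 4.54, Per3 at 6.56 ± 3.7, Arntl at 5.9 ± 3.24, Per2 at 3.81 ± 3.92, Clock at 2.54 ± 0.389 and Npas2 at 0.867 ± 0.582 CPM per kb. The ranges over libraries overlapped between all neighbours in this order except Clock and Npas2. Dbp and Nr1d2 changed places often, with Dbp above Nr1d2 in 5 of 9 libraries, while Nr1d1 exceeded Dbp in 9 of 9.

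The libraries varied together across the set. The 4 libraries with the least Dbp were APP/PS1xRIPK1KD replicates 1 and 2, APP/PS1 replicate 2 and WT replicate 1. They were also the 4 with the least Tef, Per3 and Nr1d1, and the 4 with the most Arntl. For Per2, Nr1d2 and Cry1 3 of these 4 were among the 4 lowest, though for Cry1 the other was among the 4 highest. For Npas2 3 of them were among the 4 highest, and for Clock they were split evenly. The log2 ratio of Dbp to Arntl CPM put a number on that order: it was -2.90, -0.13 and 1.55 in APP/PS1xRIPK1KD, 3.24, -1.36 and 1.46 in APP/PS1, and -2.35, 4.40 and 2.06 in WT. Dbp thus stood 21.1-fold above Arntl in WT replicate 2 and at 0.134 of it in APP/PS1xRIPK1KD replicate 1, and each genotype held ratios on both sides of 1.

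**Figure D2:**
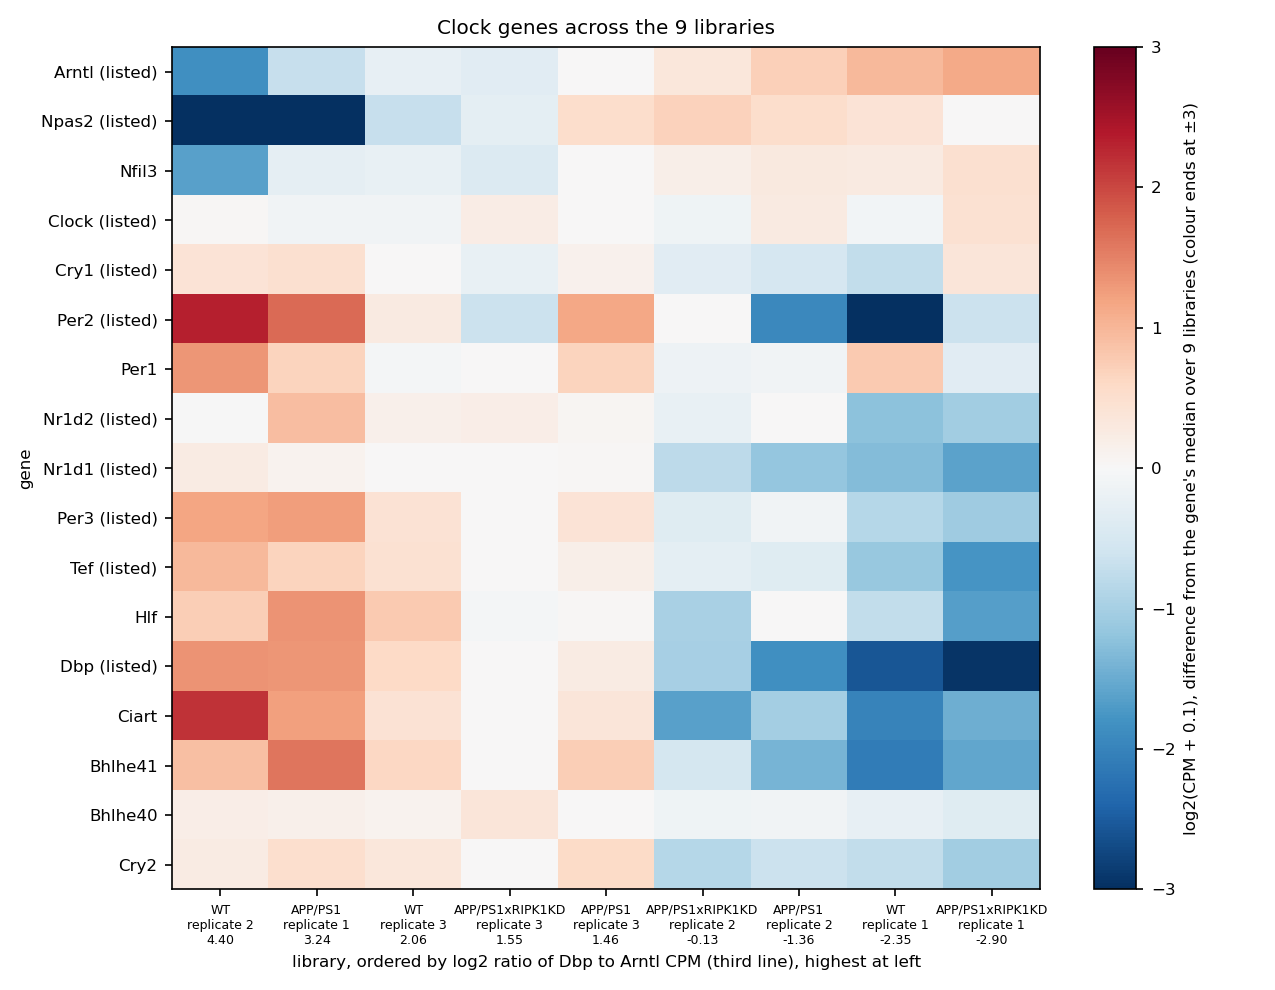
Clock genes (rows) in the 9 libraries (columns, ordered by the log2 ratio of Dbp to Arntl CPM printed under each name), coloured by the log2 difference from the median of the gene. Columns at the left are high in Dbp, Tef, Per3 and Ciart and low in Arntl and Nfil3, those at the right the reverse, and the genotypes are mixed along the order.

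Between pairs of the 10 transcripts, Pearson's r of log2 CPM over the 9 libraries is given as a description, since the set was chosen on these values and all transcripts of a library share its scaling. Dbp and Nr1d1 had r = 0.98, Dbp and Tef 0.96, and Dbp and Per3 0.95. Arntl ran against them, with r = -0.91 to Dbp and -0.88 to Nr1d1, and with Npas2, r = 0.81. Per2 had r = 0.84 to Dbp and 0.85 to Cry1, while Cry1 had only 0.54 to Dbp and Clock 0.34 to Arntl. In the 6 libraries of replicates 1 and 2 the pairs of Dbp gave 1.00 with Nr1d1, 0.96 with Tef, 0.97 with Per3, 0.87 with Per2, 0.58 with Cry1 and -0.94 with Arntl, and Arntl gave 0.91 with Npas2.

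Most of the spread lay among mice of the same genotype, as it did for genes at large. A design of 3 genotypes with 3 libraries each puts most of it there even where genotypes do not differ. For the 10 transcripts a median of 86.7% (69.7% to 98%) of the sum of squares of log2 CPM was within genotypes, beside 77.7% for all 13317 genes tested. With replicates 1 and 2 only, these were 79% (48.8% to 99.4%) and 55.4%. The median log2 range over 9 libraries was 2.54 for the 10 transcripts, beside 0.87 for the 9726 genes with a mean of at least 5 CPM. In replicates 1 and 2 only, it was 2.54 beside 0.76. Ranked by SD among those 9726, Per2 was 41st, Dbp 49th, Arntl 174th, Tef 205th, Per3 263rd, Nr1d1 400th and Nr1d2 551st. Cry1 was 2005th and Clock 7066th, and Npas2, at 4.15 CPM, was below the minimum. The 10 were chosen with these levels known, so their ranges and ranks, here and in the sets below, are a description.

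Taken by genotype or by replicate number, sets of 3 libraries differed in how far the transcripts ranged. The median log2 range of the 10 was 1.15 among the libraries of APP/PS1xRIPK1KD, 1.31 in APP/PS1 and 2.08 in WT, where all genes of at least 5 CPM had 0.42, 0.50 and 0.45. Among the 3 libraries numbered 1 it was 2.25 and among those numbered 2 it was 1.46, against 0.48 and 0.51 for all genes. Among the 3 libraries numbered 3 it was 0.40, and that of all genes was 0.40 as well. In those libraries, which carry Y-linked transcripts, Nr1d1 stood at 419, 432 and 422 CPM in APP/PS1xRIPK1KD, APP/PS1 and WT, and Dbp at 86.8, 103 and 131 CPM. Per2 and Npas2 were the exceptions there, Per2 with 3.53-fold and Npas2 with 2.4-fold between the highest and the lowest library. The labels do not say that a replicate number marks a day or a batch.

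**Figure D3:**
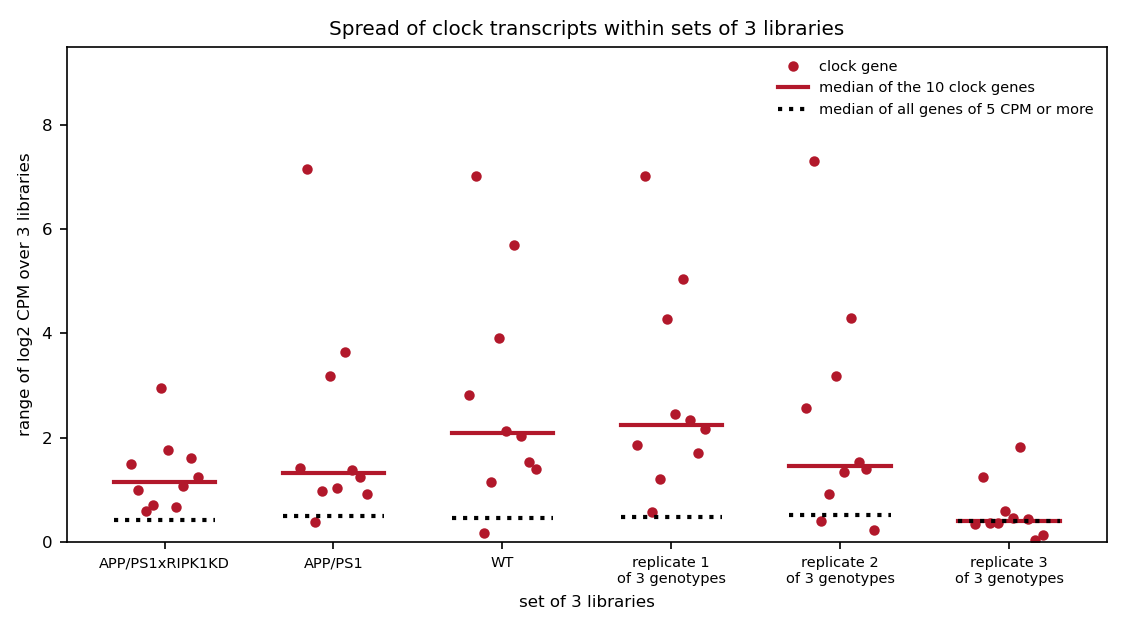
Range of log2 CPM within sets of 3 libraries (vertical axis) for each of the 10 clock transcripts (points), with their median (solid line) and the median of all genes of at least 5 CPM (dotted line). The sets are the 3 genotypes and the 3 replicate numbers, and the clock median lies above that of all genes except among the libraries numbered 3. Points near 7 are Npas2 with 0 counts in a library, where the range depends on the prior count of 2.

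The comparison of APP/PS1xRIPK1KD with APP/PS1 asks what the change in Ripk1 does in mice with amyloid. Levels of Dbp averaged 47.2 ± 37.9 CPM in APP/PS1xRIPK1KD and 115 ± 97.8 in APP/PS1 (SD, n = 3 each), a log2 fold change of -1.28 ± 1.23 (SE). In the same order of genotypes Per3 averaged 38.5 ± 13.4 CPM against 79.5 ± 39.3 (-1.04 ± 0.52), Per2 10.6 ± 2.93 against 26.8 ± 21.3 (-1.33 ± 1.31) and Tef 46.6 ± 24.3 against 77.8 ± 27.4 (-0.74 ± 0.60). The REV-ERB transcripts gave -0.42 ± 0.53 for Nr1d1 and -0.67 ± 0.41 for Nr1d2. The activators gave 0.39 ± 0.69 for Arntl, 0.22 ± 1.51 for Npas2 and 0.15 ± 0.19 for Clock, and Cry1 gave -0.11 ± 0.31. In this comparison 7 of 10 values lay below 0 with a median of -0.54, beside a median of -0.003 over all genes. Leaving out 1 library at a time moved Dbp between -2.06 (without APP/PS1xRIPK1KD replicate 3) and -0.43 (without APP/PS1 replicate 1), Per3 between -1.30 and -0.58 (without APP/PS1 replicate 1) and Arntl between -0.08 (without APP/PS1xRIPK1KD replicate 1) and 0.83. With replicates 1 and 2 only, Dbp gave -2.14, Tef -1.10, Per2 -1.09, Per3 -1.40, Nr1d1 -0.74 and Nr1d2 -1.11. Arntl then gave 0.62, Npas2 0.82, Clock 0.11 and Cry1 0.00.

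Against WT, APP/PS1xRIPK1KD shares its 3 libraries with the comparison above, so the values are set side by side and are not a second observation. Dbp averaged 47.2 ± 37.9 CPM in APP/PS1xRIPK1KD and 122 ± 103 in WT (-1.37 ± 1.23), and Per2 10.6 ± 2.93 CPM in APP/PS1xRIPK1KD and 29.6 ± 36.4 in WT (-1.49 ± 1.31). Tef averaged 46.6 ± 24.3 CPM in APP/PS1xRIPK1KD and 83.8 ± 50.7 in WT (-0.85 ± 0.60), and Per3 38.5 ± 13.4 CPM in APP/PS1xRIPK1KD and 71.1 ± 43.8 in WT (-0.88 ± 0.52). Among the 10, the period and PAR bZIP transcripts thus had the largest differences in size, none of these 4 beyond 2 SE. Nr1d1 gave -0.44 ± 0.53, Nr1d2 -0.03 ± 0.41, Cry1 -0.00 ± 0.31, Clock 0.26 ± 0.19, Npas2 0.82 ± 1.52 and Arntl 0.48 ± 0.69. Again 7 of 10 lay below 0, with a median of -0.24 beside 0.003 over all genes. Without 1 library at a time Per2 ran from -2.05 (without WT replicate 1) to 0.21 (without WT replicate 2), Dbp from -2.14 (without APP/PS1xRIPK1KD replicate 3) to -0.62 (without WT replicate 2), and Arntl from 0.02 (without APP/PS1xRIPK1KD replicate 1) to 1.36 (without WT replicate 1). Limited to replicates 1 and 2, Dbp gave -2.10, Tef -1.13, Per2 -1.66, Per3 -1.16, Nr1d1 -0.81 and Nr1d2 -0.09. Arntl then gave 0.64, Npas2 0.97, Clock 0.21 and Cry1 0.11.

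The comparison of APP/PS1 with WT asks what the amyloid model alone does. Dbp averaged 115 ± 97.8 CPM in APP/PS1 and 122 ± 103 in WT (-0.09 ± 1.21), and Nr1d1 356 ± 146 CPM in APP/PS1 and 362 ± 169 in WT (-0.03 ± 0.53). Among the 10, only Nr1d2, at 125 ± 47.8 CPM in APP/PS1 and 80.3 ± 35.1 in WT, had a log2 fold change beyond its SE (0.64 ± 0.41). Arntl gave 0.09 ± 0.69, Npas2 0.60 ± 1.52, Clock 0.11 ± 0.19, Cry1 0.11 ± 0.31, Per2 -0.15 ± 1.28, Per3 0.16 ± 0.52 and Tef -0.11 ± 0.59. Here 6 of 10 lay above 0, with a median of 0.10 beside 0.002 over all genes. The fold change of Nr1d2 was 0.28 without APP/PS1 replicate 1 and 0.32 without WT replicate 1, below that SE, and at most 0.89 when any other library was left out. Leaving out 1 library at a time moved Dbp from -0.94 (without APP/PS1 replicate 1) to 0.66 (without WT replicate 2) and Per2 from -0.77 to 1.55 (the same libraries). In replicates 1 and 2 alone, Dbp gave 0.04, Tef -0.03, Per2 -0.57, Per3 0.24, Nr1d1 -0.07 and Nr1d2 1.03. Arntl then gave 0.02, Npas2 0.15, Clock 0.11 and Cry1 0.11. In the authors' deposited table of this comparison the 10 log2 fold changes lay between -0.14 and 0.61, and 0 of 10 passed an FDR of 0.05.

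Of the 10 transcripts, 0 passed an FDR of 0.05 in edgeR's quasi-likelihood test in any comparison, where 0.00751% of all genes did so in APP/PS1xRIPK1KD against APP/PS1, 0.0375% in APP/PS1xRIPK1KD against WT and 0.0225% in APP/PS1 against WT. At an unadjusted p under 0.05 the count was 0 as well, beside 4.78%, 6.18% and 6.14% of all genes, and DESeq2 called 0, beside 0.143%, 0.466% and 0.338%. In each comparison the libraries of the genotypes overlapped for 10 of 10, where they did not overlap for 9.98%, 12% and 10.9% of all genes. As the set was chosen on these values, nothing is read from these counts, and they do not show that the genotypes have equal clock levels: the SE of Dbp alone is over 1 on the log2 scale.

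**Figure D4:**
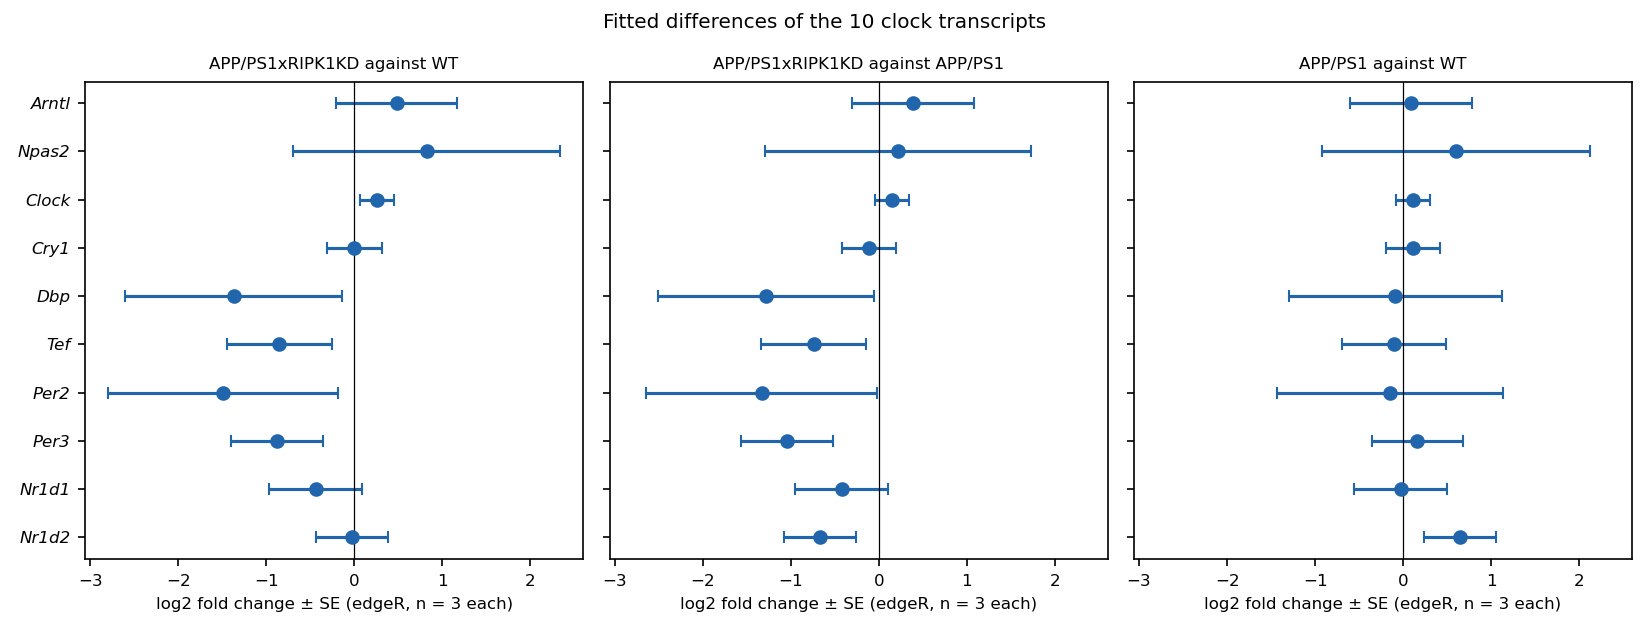
Log2 fold changes ± SE (horizontal axes, 3 libraries per genotype) of the 10 clock transcripts in the 3 comparisons, which share libraries. Bars of Dbp, Per2 and Npas2 are the widest, with SE from 1.21 to 1.52, and Clock has the narrowest at 0.19.

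The clock holds further transcripts beyond the 10: of 19 listed by function 18 were tested, and 0 passed the FDR threshold in any comparison (percentages of all genes as above), with DESeq2 calling 0 too. At an unadjusted p under 0.05 edgeR counted 1 lower in APP/PS1xRIPK1KD against APP/PS1, 2 lower in APP/PS1xRIPK1KD against WT and 1 lower in APP/PS1 against WT, and 0 higher, beside 4.78%, 6.18% and 6.14% of all genes in either direction. In the first it was Hlf, which encodes the remaining PAR bZIP factor, at 10.9 ± 6.11 CPM in APP/PS1xRIPK1KD and 27.7 ± 16 in APP/PS1 (-1.34 ± 0.51, edgeR FDR 0.98). In the second they were Hlf (-1.16 ± 0.51, edgeR FDR 0.787) and Per1, the light-responsive period gene, at 93.2 ± 10.8 CPM in APP/PS1xRIPK1KD and 180 ± 81.4 in WT (-0.95 ± 0.30, edgeR FDR 0.64). In the third it was Timeless, a replication fork protein named for its fly relative, at 46.3 ± 2.58 CPM in APP/PS1 and 64.9 ± 10.8 in WT (-0.49 ± 0.15, edgeR FDR 0.787). With replicates 1 and 2 only, Hlf gave -2.10 and -1.47 in the first 2 comparisons, Per1 -1.33 in the second and Timeless -0.30 in the third. Without single libraries Hlf reached -0.76 in the first comparison (without APP/PS1 replicate 1) and Per1 -0.58 in the second (without WT replicate 2). The medians of the 18 were -0.07, -0.14 and -0.01 in that order of comparisons.

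Across single libraries several of these transcripts kept the order of the 10. Bhlhe41 (DEC2), a repressor that competes for E-boxes, stood at 4.45, 9.27 and 13.4 CPM in APP/PS1xRIPK1KD, 40.9, 5.03 and 22.3 CPM in APP/PS1, and 3.04, 25.1 and 20.8 CPM in WT. Ciart stood at 6.57, 5.86 and 18.4 CPM in APP/PS1xRIPK1KD, 43.2, 9.04 and 23.8 CPM in APP/PS1, and 4.51, 82.9 and 24.7 CPM in WT. Nfil3, the D-box repressor, ran the other way at 13.1, 10.5 and 6.96 CPM in APP/PS1xRIPK1KD, 7.68, 11.5 and 9.3 CPM in APP/PS1, and 11.2, 2.95 and 7.9 CPM in WT. The 4 libraries lowest in Dbp were also the 4 lowest in Bhlhe41, Ciart, Bhlhe40, Cry2 and the output gene Tspan4, and the 4 highest in Nfil3. For Hlf, Per1 and Wee1, 3 of them were among the 4 lowest, and for Per1 and Wee1 the other was among the 4 highest. Rora, the activator at RORE elements, was split evenly, and so were the kinases Csnk1d and Csnk1e that phosphorylate PER proteins.

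Correlations with Dbp were computed for 25 transcripts, 15 further clock genes and 10 clock outputs of at least 5 CPM, over 9 libraries of separate mice, with exact 2-sided permutation p-values. Benjamini-Hochberg adjustment ran over all 9717 genes of that level outside the 10. In that family 0 genes passed 0.05, for r or for rho, with a smallest adjusted p of 0.281 for r and 0.241 for rho, and 3.79% had an unadjusted p of r under 0.05. Bhlhe41 had the highest r of all 9717 genes at 0.97 (exact permutation p = 5.79e-05, adjusted 0.281) with rho 0.95 (p = 0.000353, adjusted 0.809). Tspan4, a tetraspanin listed as a clock output, came second with r = 0.94 (exact permutation p = 0.000424, adjusted 0.515) and rho 0.93 (p = 0.00075, adjusted 0.809). Ciart was 4th with r = 0.92 (exact permutation p = 0.000741, adjusted 0.515) and rho 0.92 (p = 0.00131, adjusted 0.821), and Cry2 5th with r = 0.91 (exact permutation p = 0.002, adjusted 0.839) and rho 0.80 (p = 0.0138, adjusted 1). Dbp and these lists were chosen with earlier results of the libraries known, so r, rho and their p-values, here and below, are given as a description. The permutations also exchange libraries across genotypes, and across those with Xist and those with Y-linked transcripts.

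Further down, Hlf was 10th (r = 0.87, exact permutation p = 0.0025, adjusted 0.89; rho 0.87, p = 0.00451, adjusted 0.952) and Bhlhe40 (DEC1) 15th (r = 0.85, exact permutation p = 0.00472, adjusted 0.999; rho 0.82, p = 0.0108, adjusted 1). Wee1, a mitotic kinase under E-box control, was 72nd with r = 0.75 (exact permutation p = 0.0121, adjusted 0.999) and rho 0.75 (p = 0.0255, adjusted 1). Nfil3 had r = -0.76 (exact permutation p = 0.00505, adjusted 0.999) and rho -0.88 (p = 0.00308, adjusted 0.952), 61st from the most negative end. The other 9 clock genes had r between 0.03 and 0.49 in size, Per1 being the highest (r = 0.49, exact permutation p = 0.175, adjusted 0.999; rho 0.55, p = 0.133, adjusted 1). The other 8 outputs reached 0.65 in size, with Thbd (thrombomodulin) at r = -0.65 (exact permutation p = 0.0555, adjusted 0.999) and rho -0.60 (p = 0.0968, adjusted 1).

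Left without the 2 libraries farthest from the median of Dbp, r was 0.96 for Bhlhe41, 0.89 for Tspan4, 0.91 for Ciart, 0.84 for Cry2, 0.76 for Hlf, 0.65 for Bhlhe40, 0.77 for Wee1 and -0.71 for Nfil3. In the 6 libraries of replicates 1 and 2 alone, those with Xist, it was 0.97, 0.94, 0.92, 0.93, 0.88, 0.97, 0.80 and -0.81 in the same order of genes. The 3 libraries of replicate 3 are too few for a value. After each genotype's own mean was taken out, r was 0.98 for Bhlhe41, 0.94 for Tspan4, 0.91 for Ciart, 0.91 for Cry2 and -0.82 for Nfil3.

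By likeness over all genes of at least 5 CPM, the 5 closest to Dbp were Bhlhe41, Tspan4, Utp3, Ciart and Cry2, with r from 0.97 to 0.91 over 9 libraries. Closest to Arntl were Nfil3 (r = 0.95), the phosphate transporter Slc20a2 (0.95), Kin (0.92), Iffo2 (0.92) and the proteasome subunit Psma4 (0.91), given as a description. Slc20a2 stood at 15.2, 13.3 and 8.85 CPM in APP/PS1xRIPK1KD, 9.5, 15.1 and 8.19 CPM in APP/PS1, and 15.3, 4.56 and 9.31 CPM in WT. Its high libraries were the 4 lowest in Dbp. Psma4, with a range of 93.3 to 106 CPM, moved far less than Arntl for all its likeness.

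Of the 12 genes listed as clock outputs 11 were tested, and edgeR called 0 of them at an FDR of 0.05 in each comparison. In APP/PS1xRIPK1KD against APP/PS1 10 of 11 lay below 0 with a median of -0.32, and in APP/PS1xRIPK1KD against WT 9 of 11 with a median of -0.48. In APP/PS1 against WT it was 6 of 11, with a median of -0.01. Over all genes tested, 49.4%, 50.6% and 50.2% lay above 0 in these comparisons, with medians of -0.003, 0.003 and 0.002. At an unadjusted p under 0.05 the counts were 2 lower, 4 lower and 1 lower, and 0 higher, beside 4.78%, 6.18% and 6.14% of all genes in either direction. Klf9, a zinc finger factor that both the clock and glucocorticoids induce, averaged 154 ± 2.1 CPM in APP/PS1xRIPK1KD, 209 ± 18.2 in APP/PS1 and 235 ± 46 in WT (-0.44 ± 0.15 and -0.61 ± 0.15 for APP/PS1xRIPK1KD against APP/PS1 and against WT, edgeR FDR 0.98 and 0.531). Por, the electron donor of cytochromes P450, averaged 104 ± 10.5 CPM in APP/PS1xRIPK1KD, 112 ± 12.3 in APP/PS1 and 161 ± 12 in WT (-0.62 ± 0.13 for APP/PS1xRIPK1KD against WT, edgeR FDR 0.27). Por was also the output counted as lower in APP/PS1 against WT (-0.52 ± 0.13, edgeR FDR 0.711), and APP/PS1xRIPK1KD against APP/PS1 gave -0.10 ± 0.13. DESeq2 called both in APP/PS1xRIPK1KD against WT, Por with an adjusted p of 0.0126 and Klf9 with 0.0372, where DESeq2 called 0.466% of all genes. Wee1 averaged 15.2 ± 5.25 CPM in APP/PS1xRIPK1KD and 31.4 ± 13.6 in WT (-1.05 ± 0.33, edgeR FDR 0.616) and Tsc22d3 (GILZ), another glucocorticoid target, 638 ± 125 CPM in APP/PS1xRIPK1KD and 1009 ± 368 in WT (-0.66 ± 0.23, edgeR FDR 0.662). In that comparison replicates 1 and 2 alone gave -0.76 for Klf9, -0.61 for Por, -1.46 for Wee1 and -1.05 for Tsc22d3, and without WT replicate 2 Wee1 gave -0.63 and Tsc22d3 -0.34.

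Glucocorticoids set peripheral clocks, so 9 genes of that pathway were listed as well, 3 of which (Per1, Klf9 and Tsc22d3) stand in the lists above. Of the 9, 0 passed the FDR threshold in edgeR, and at an unadjusted p under 0.05 the counts were 2 lower, 4 lower and 0 in APP/PS1xRIPK1KD against APP/PS1, APP/PS1xRIPK1KD against WT and APP/PS1 against WT, while DESeq2 called 1, 2 and 0. Of all genes, 4.78%, 6.18% and 6.14% had such a p, and DESeq2 called 0.143%, 0.466% and 0.338%. Against APP/PS1 the 2 were Fkbp5 and Klf9, and against WT the 4 were Fkbp5, Klf9, Tsc22d3 and Per1. DESeq2 called Fkbp5 in both and Klf9 against WT, so only Fkbp5 adds to the calls above. The remaining genes in APP/PS1xRIPK1KD against WT were Nr3c1 (0.17 ± 0.15), Sgk1 (-0.12 ± 0.24), Zbtb16 (-0.39 ± 0.21), Errfi1 (0.45 ± 0.45) and Ddit4 (-0.47 ± 0.24). Fkbp5, which encodes a co-chaperone that restrains the glucocorticoid receptor, stood at 7.4, 4.02 and 7.39 CPM in APP/PS1xRIPK1KD, 17.6, 35.9 and 15.5 CPM in APP/PS1, and 28.5, 26.9 and 20.9 CPM in WT. All 3 APP/PS1xRIPK1KD libraries lay below the other 6, with log2 fold changes of -1.88 ± 0.35 against APP/PS1 (edgeR FDR 0.696, DESeq2 adjusted p 0.00121) and -2.02 ± 0.35 against WT (edgeR FDR 0.117, DESeq2 adjusted p 3e-05). With replicates 1 and 2 only they were -2.23 (edgeR FDR 0.275) and -2.28 (edgeR FDR 0.207). The high Fkbp5 libraries included both high and low libraries of Dbp: WT replicates 1 and 2, at 28.5 and 26.9 CPM, had 14.5 and 220 CPM of Dbp.

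Other measures were set beside the order of the libraries. In APP/PS1xRIPK1KD replicate 1, lowest in Dbp, the choroid plexus sum was 304 CPM, the highest of 9, and in WT replicate 2, highest in Dbp, it was 38.8 CPM, the lowest. WT replicate 1, with 14.5 CPM of Dbp, had 68.3 CPM of that sum and APP/PS1 replicate 3, with 103 CPM of Dbp, had 137 CPM. Over all 9 libraries the sum in CPM and the log2 CPM of Dbp had r = -0.62 and rho = -0.78, given as a description, and the sum was also higher in APP/PS1xRIPK1KD than in every other library. It is named because its r and rho were the largest in size of all measures set beside Dbp. The next in size was the sum of the 4 Y-linked transcripts, with r = 0.38 and rho = 0.42. The endothelial sum varied less than the choroid plexus sum, with 28226 CPM in APP/PS1xRIPK1KD replicate 1 and 29314 CPM in WT replicate 2. Mural cell transcripts summed to 67.3 CPM in APP/PS1xRIPK1KD replicate 1 and 12.8 CPM in WT replicate 2, and Rn45s, the ribosomal RNA precursor, took 26.4% and 33.4% of their counts. These end libraries do not stand for the whole order. Over the 9 libraries the mural sum and Dbp had r = 0.05 and rho = -0.22. The Rn45s share and Dbp had r = 0.25 and rho = 0.35, and WT replicate 1, low in Dbp, had the highest share at 33.8%. Total counts and Dbp had r = -0.27 and rho = -0.02 over the 9 libraries. The part of these measures, and of the hour of collection, in the order of the libraries was not tested.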

How the data were processed

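RNA of sorted CD31+CD45- brain endothelial cells was sequenced in 9 libraries, 3 per genotype. The authors deposited expected counts per gene symbol, and per the submitters' processing notes the tools were Bowtie 0.12.2, RSEM and edgeR 3.10.2 on mm10 (GRCm38). No label or header names the gene annotation. Of the deposited values 28.3% were not whole numbers (tolerance 1e-09). The authors also deposited an edgeR table of APP/PS1 against WT with log2 fold changes and abundances, a likelihood ratio score, p-values and FDR.

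Expected counts were rounded, filtered with filterByExpr (minimum count 10, minimum total 15), which kept 13317 genes, and scaled by TMM. One edgeR 4.0.16 quasi-likelihood fit (robust, genotype as the only factor, R 4.3.3) over 9 libraries gave 3 contrasts, tested 2-sided with Benjamini-Hochberg adjustment over all genes tested and an FDR threshold of 0.05. The SE of a fold change was derived from that test, as its size divided by the square root of the F statistic. It thus carries the moderated spread and is not a separately fitted standard error. The code was tested on simulated data. DESeq2 1.42.0, RLE scaling, no filter, Rn45s left out, replicates 1 and 2 only, a replicate block and leaving out each library were the alternatives. Log2 CPM had a prior count of 2. Exact permutation p-values and correlations were computed in Python 3.11.15 with scipy 1.17.1.

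Over all genes tested, deviations of same-numbered libraries were hardly correlated (r at most 0.0983), so the numbers were not used as pairs. Xist and Y-linked transcripts did go with the replicate number. A correlation over all genes cannot exclude shared deviations of smaller sets of genes. Ciart was matched by an older symbol.

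The 10 genes and all lists were chosen with earlier results of these data known. Named were all 10, members of the clock, output and glucocorticoid lists of at least 5 CPM, and the 5 genes most correlated with Dbp and with Arntl. Of those lists, the members in the text were those with a call at unadjusted p under 0.05, in the correlations or in the library order, and were picked after their values were seen. The glucocorticoid genes without such a call are given as well.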

Additional observations from a re-analysis of the deposited data

How the results depend on the processing

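Of 450 fold changes of the 10 clock transcripts under the alternatives, 0 moved by more than 1 SD between libraries and 32 changed sign, 22 of 150 in APP/PS1 against WT, 6 of 150 in APP/PS1xRIPK1KD against APP/PS1 and 4 of 150 in APP/PS1xRIPK1KD against WT. That limit is wide and does not show stable values. Per2 in APP/PS1 against WT went from -0.15 to 1.55 without WT replicate 2 and stayed within it. Some alternatives left out a library of the genotype outside the comparison, which hardly moves its fold changes. Further clock genes stayed at 0 calls throughout, and clock outputs had 2 calls, with DESeq2 in APP/PS1xRIPK1KD against WT. Genes called among all tested numbered 1 in APP/PS1xRIPK1KD against APP/PS1: 19 with DESeq2, 0 to 4 without single replicates, 0 with replicates 1 and 2 only and 0 with the replicate block. In APP/PS1xRIPK1KD against WT the count was 5: 62 with DESeq2, 14 without a filter, 2 to 9 without single replicates, 8 with replicates 1 and 2 only and 0 with the replicate block. In APP/PS1 against WT it was 3: 45 with DESeq2, 7 without a filter and 1 to 5 without single replicates. The cause of these shifts was not tested. The 9 pairs of same-numbered libraries had correlations of deviations from -0.0187 to 0.0983, 0 of them over 0.1, so the numbers were not taken to pair the mice. These correlations ran over all genes tested and cannot exclude that smaller sets, as Xist and the Y-linked transcripts, went with the number. Differences in the log2 ratio of Dbp to Arntl ran, without single replicates, from -2.84 to -0.40 in APP/PS1xRIPK1KD against APP/PS1, from -3.72 to -0.35 in APP/PS1xRIPK1KD against WT and from -2.12 to 1.26 in APP/PS1 against WT. With 3 mice per genotype and an unrecorded hour of collection, differences of the size seen between mice of 1 genotype limit what the genotypes can show.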
